A study of Mus musculus with 6 samples.

Results

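The 10 T-box genes Tbx1, Tbx2, Tbx3, Tbx4, Tbx5, Tbx15, Tbx18, Tbx20, Tbx21 and Eomes were followed through the H3K27me3 peak lists of mouse ovarian granulosa cells (GCs). They were chosen by name from the 22015 protein-coding genes of the mm10 annotation (GENCODE M21) as members of the T-box family, with earlier results of these data known. Each gene was given a window from 5 kb upstream of its annotated transcription start site (TSS) to its end, and every peak that shared at least 1 base with the window was counted.

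The libraries were made by CUT&Tag, in which an antibody guides a transposase to chromatin that carries the mark. Female ICR mice of 3 weeks were primed with PMSG, which promotes follicle growth, and were injected intraperitoneally with PBS or with cyclophosphamide (CTX), an alkylating chemotherapy drug. GCs were taken 6 h later, those of 3 mice were pooled for each library, and each group had 3 libraries. A pooled library averages over its animals, and the cells of one library cannot be told apart, so a weaker peak may stand for fewer marked cells or for less mark in each cell.

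T-box factors bind DNA through a shared domain, the T-box, and set tissue identity in the embryo, above all in the limb, heart, pharynx and mesoderm, with later roles in lymphocytes. H3K27me3 is laid down by Polycomb repressive complex 2 and marks genes that are kept silent, often across the CG-rich start of developmental regulators. Peaks in these lists show where the mark was found and say nothing of the RNA of the gene.

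The 6 lists held between 2916 and 6378 peak intervals, and the read depth recovered from them ran from 1118 to 1957 reads per Mb. CTX library 3 was the shallowest and had the shortest list, and PBS library 1 was the deepest and had the longest. The PBS lists held 5316 ± 1067 intervals and the CTX lists 4063 ± 1055 (SD, n = 3 each), and their ranges overlapped (exact two-sided permutation test, p = 0.3). Of 12 GC markers, 0 had a peak within 2 kb of the start in any library, and 1, Fshr, had a peak elsewhere in its window in 1 library. Sox9 and Dmrt1, which belong to the Sertoli cells of the testis, carried peaks in all 6 libraries, and 3 of 6 Sertoli markers had a peak in any. Markers of theca and stroma carried window peaks for 4 of 8 genes, of oocytes for 1 of 8, of endothelium for 1 of 4 and of immune cells for 2 of 4. Each oocyte, endothelial and immune gene with a peak had it in 1 library only. Of all protein-coding genes, 19.4% had a window peak in at least 1 library and 4.51% in all 6. The part of other cell types in the T-box peaks was not tested.

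All 10 T-box genes had a peak in at least 1 library, against 19.4% of all protein-coding genes. Tbx18, Tbx20 and Tbx21 had a peak in all 6 libraries, against 4.51% of protein-coding genes. Their shared peaks lay at or just past the start of the gene. DNA that lay under a peak in every library is given for these 3 genes, whole for Tbx18 and in part for Tbx20, cut at the TSS, and for Tbx21, cut to 300 bases, because it is the most repeatable H3K27me3 signal among the T-box genes, together with the stretch upstream of Tbx4 that was covered in the 3 PBS libraries and in 0 CTX libraries. Sequences were read from the mm10 (GRCm38) genome on the strand of the gene, 5′ to 3′, with CG dinucleotides in capitals.

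Tbx20, chr9:24774304-24774589, minus strand, the 286 bases just upstream of the TSS, 23 CG.
Tbx20: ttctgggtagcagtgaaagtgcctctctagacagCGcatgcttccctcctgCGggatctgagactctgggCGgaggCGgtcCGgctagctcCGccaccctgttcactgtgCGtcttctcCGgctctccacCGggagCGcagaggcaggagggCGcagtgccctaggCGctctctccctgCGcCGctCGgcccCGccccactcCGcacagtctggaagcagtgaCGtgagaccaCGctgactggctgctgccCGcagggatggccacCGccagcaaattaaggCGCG
Tbx18, chr9:87729638-87729787, minus strand, 1473 to 1622 bases past the TSS, coding exon and intron, 9 CG.
Tbx18: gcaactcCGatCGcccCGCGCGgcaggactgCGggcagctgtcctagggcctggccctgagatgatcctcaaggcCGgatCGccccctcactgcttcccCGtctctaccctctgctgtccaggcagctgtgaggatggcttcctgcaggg
Tbx21, chr11:97114734-97115033, minus strand, 298 to 597 bases past the TSS, coding exon, 36 CG.
Tbx21: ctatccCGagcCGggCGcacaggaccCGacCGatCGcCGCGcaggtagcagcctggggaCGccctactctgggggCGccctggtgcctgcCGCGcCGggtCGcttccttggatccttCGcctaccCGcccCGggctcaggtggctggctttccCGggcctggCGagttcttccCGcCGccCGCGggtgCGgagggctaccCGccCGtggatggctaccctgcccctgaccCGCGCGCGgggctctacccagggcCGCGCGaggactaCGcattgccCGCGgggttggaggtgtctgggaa
Tbx4, chr11:85885837-85886127, plus strand, 585 to 295 bases upstream of the TSS, 12 CG.
Tbx4: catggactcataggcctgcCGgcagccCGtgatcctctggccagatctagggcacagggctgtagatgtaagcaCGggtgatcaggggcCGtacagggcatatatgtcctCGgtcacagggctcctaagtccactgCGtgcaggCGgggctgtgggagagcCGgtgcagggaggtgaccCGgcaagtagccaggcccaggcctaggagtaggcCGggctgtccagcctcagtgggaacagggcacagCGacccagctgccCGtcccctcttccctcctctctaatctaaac

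The Tbx21 stretch held 12 CG per 100 bases, the Tbx20 stretch 8.04, the Tbx18 stretch 6.00 and the Tbx4 stretch 4.12. The Tbx20 and Tbx21 peaks shared by all libraries covered 438 and 379 bp in full, and that of Tbx20 ran on past the TSS.

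**Figure D1:**
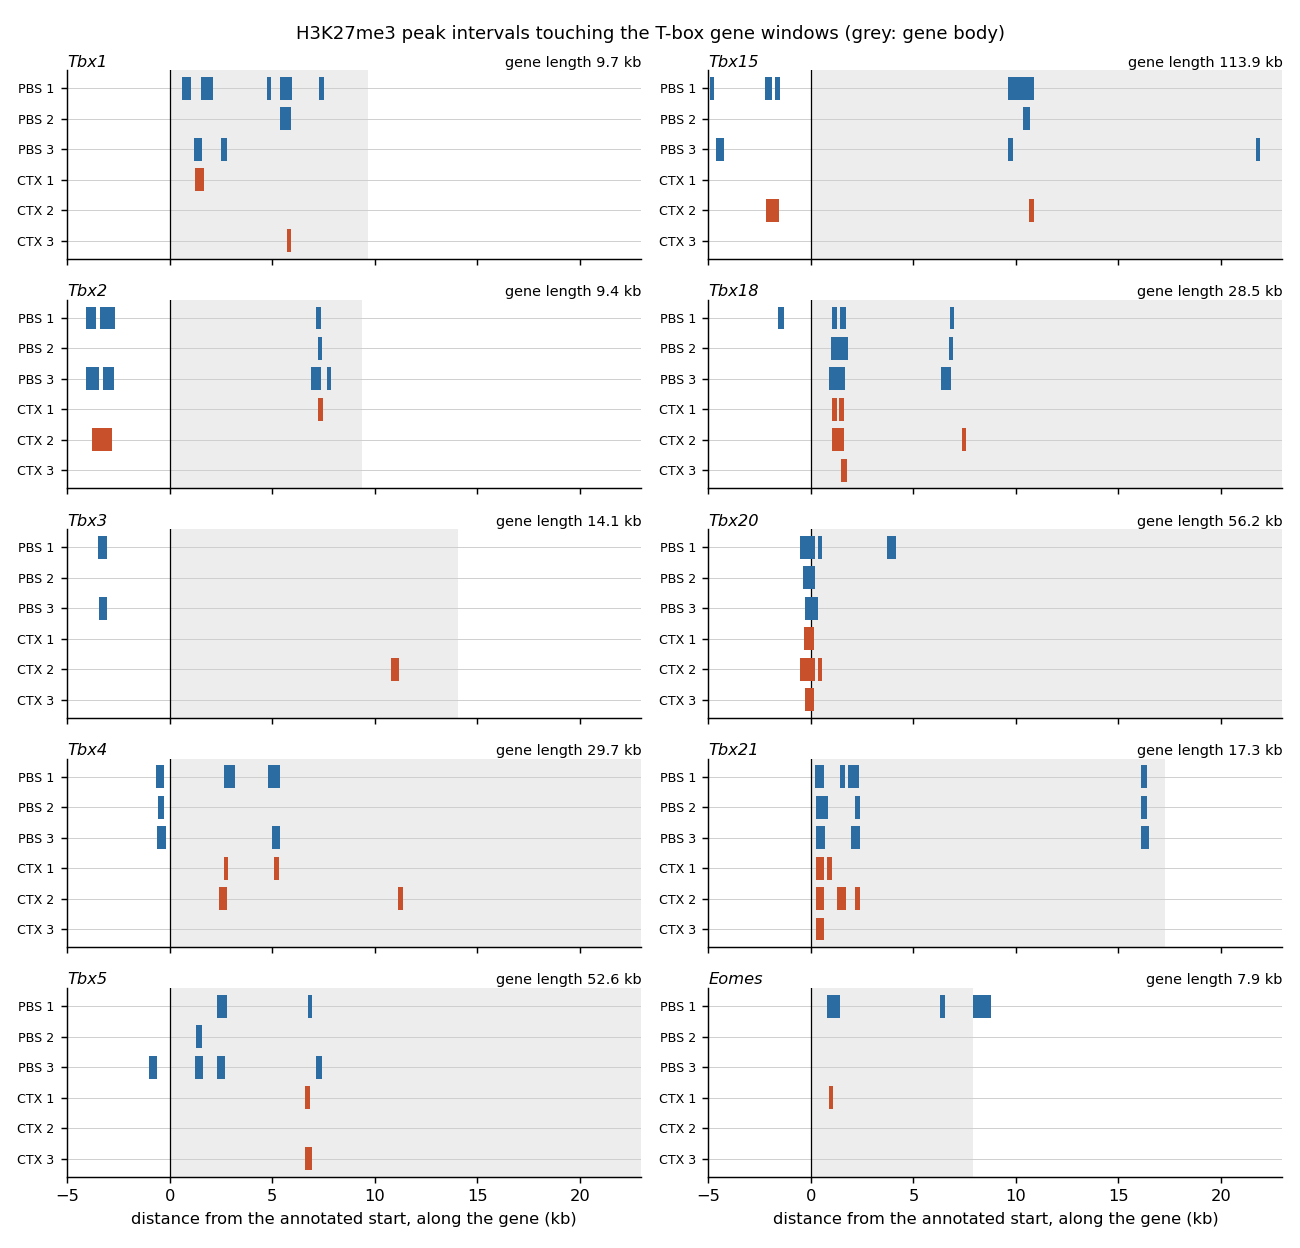
Peak intervals that touched the windows of the 10 T-box genes, drawn by distance from the annotated start along the gene (x axis, kb), with 1 lane for each PBS (blue) and CTX (orange) library and the gene body in grey. Tbx20 intervals cross the start in all 6 libraries, those of Tbx18 and Tbx21 sit just past it, and the Tbx4 interval upstream of the start is found in the 3 PBS lanes alone.

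Tbx20, a factor of the developing and adult heart, carried the strongest peak of the 10 genes in all 6 libraries. The −log10 q of its strongest peak was 10.6, 19.5 and 10.4 in PBS libraries 1 to 3 and 8.82, 13.7 and 9.30 in CTX libraries 1 to 3. By rank within its own list this peak stood 1031st of 9083 summits, 106th of 5594 and 862nd of 7696 in the PBS libraries, and 503rd of 5061, 310th of 6427 and 243rd of 3316 in the CTX libraries. The groups overlapped on both measures, and PBS library 2 was the highest. The share of the list that stood below it was 91.9 ± 5.42% in PBS and 92.6 ± 2.56% in CTX (SD, n = 3 each; exact permutation test, p = 0.8).

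The merged Tbx20 region, chr9:24773749-24774859, ran from 556 bases upstream of the TSS to 554 past it and took in coding sequence. It covered 952, 595 and 652 bp in the PBS libraries and 511, 950 and 449 bp in the CTX libraries. These ranges overlapped, with PBS library 1 and CTX library 2 the widest. Over the whole Tbx20 window the covered length was 885 ± 454 bp in PBS and 637 ± 273 bp in CTX (exact permutation test, p = 0.5), and the higher mean in PBS rested on PBS library 1, which had another region 3.7 kb into the gene. Without that library the CTX mean was 13.2 bp above the PBS mean.

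Tbx18, which acts in the epicardium, the sinus node and the ureter, was covered over 1041, 1046 and 1229 bp in the PBS libraries and 497, 822 and 301 bp in the CTX libraries. The groups did not overlap, and the PBS libraries were close together. The means were 1105 ± 107 bp and 540 ± 263 bp (exact permutation test, p = 0.1, the smallest p that 3 against 3 libraries can give). Adjusted over the 4270 genes with a peak in any library the Benjamini-Hochberg value was 0.7, also the lowest of any gene, so no single gene could be called changed with this design.

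The Tbx18 region shared by all libraries, chr9:87729446-87730372, began 888 bases past the TSS and held 82 CG in 927 bases. It covered 534, 846 and 780 bp in PBS and 497, 616 and 301 bp in CTX, and the lowest PBS value lay below the highest CTX value. Another region, 6.4 to 7.0 kb into the gene, was covered over 200, 200 and 449 bp in PBS and was called in 0 CTX libraries. It was weak, with 27, 17 and 21 reads under its highest point.

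Tbx21 encodes T-bet, the factor that directs T helper type 1 cells. It was covered over 1524, 1129 and 1274 bp in the PBS libraries and 629, 1041 and 384 bp in the CTX libraries, without overlap of the groups. The means were 1309 ± 200 bp in PBS and 685 ± 332 bp in CTX (exact permutation test, p = 0.1, Benjamini-Hochberg value over all 4270 genes 0.7).

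The Tbx21 region next to the start, chr11:97114312-97115121, covered 432, 586 and 444 bp in PBS and 629, 385 and 384 bp in CTX. The widest of the 6 was CTX library 1, so this region overlapped between groups. The lower window total in CTX came from other peaks. A region in the intron, 1.8 to 2.4 kb past the TSS, was called in 3 PBS libraries and in CTX library 2, and a region in a coding exon 16.1 to 16.5 kb past the TSS was called in 3 PBS and 0 CTX libraries. The latter held 26, 13 and 17 reads under its highest point.

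The strongest peak in the Tbx21 window had a −log10 q of 7.36, 8.59 and 10.2 in PBS and 4.63, 5.12 and 4.22 in CTX. It was not the same peak in every library, being the coding exon region 16.1 kb past the TSS in PBS library 1 and an intron region in PBS library 3 and CTX library 2. In the region next to the start alone, the −log10 q was 6.97, 8.59 and 9.81 in PBS and 4.63, 4.45 and 4.22 in CTX. Every CTX value lay below every PBS value in both sets. The −log10 q itself moves with read depth, which was on average 1642 reads per Mb in PBS and 1394 in CTX. The strongest peak stood above 84.2 ± 6.86% of its list in PBS and above 66.1 ± 1.66% in CTX (exact permutation test, p = 0.1). The same measure was 84.5 ± 3.35% and 80.9 ± 4.03% for Tbx18 (exact permutation test, p = 0.3). The share of all genes whose groups stood apart was counted neither for −log10 q nor for this measure.

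**Figure D2:**
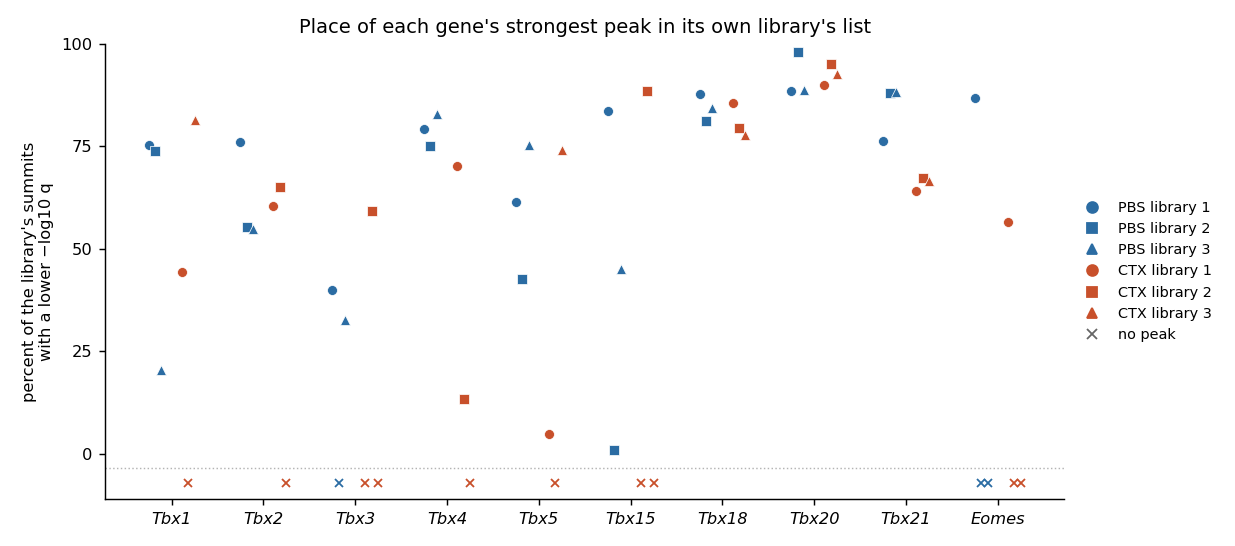
Percent of the summits in a library's own list that had a lower −log10 q than the strongest peak of each T-box gene (y axis), for each gene (x axis) and library (PBS blue, CTX orange, crosses for no peak). Tbx20 stays above 88% in all 6 libraries, while the 3 CTX values of Tbx21 lie between 64.2% and 67.3%, below its 3 PBS values.

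The height of these peaks was compared as the highest number of reads over a base, recovered from the fold and p-value and brought to a common 1000 reads per Mb. That depth rests on an assumed fragment of 200 bp, so the scaled heights are relative to each library's own background. Tbx18 reached 30.7, 31.3 and 31.4 scaled reads in PBS and 27.2, 25.8 and 27.7 in CTX. Tbx20 reached 46.5, 64.7 and 50.2 scaled reads in PBS and 39.1, 46.0 and 44.7 in CTX. Tbx21 reached 25, 31.3 and 30.7 scaled reads in PBS and 23, 21.5 and 23.3 in CTX. None of the 3 genes overlapped between groups.

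The log2 difference of CTX from PBS was −0.21 for Tbx18, −0.30 for Tbx20 and −0.35 for Tbx21 (exact permutation test, p = 0.1 each, Benjamini-Hochberg value 0.23 each over the 991 genes with a height in every library). The median log2 difference over those 991 genes was −0.29, and 41.2% of them were lower in CTX without overlap, against 2.22% that were higher. The Tbx18 and Tbx20 differences were thus close to or smaller than the median gene, and that of Tbx21 was larger.

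Tbx1, a factor of the pharyngeal arches and cardiac outflow tract, was covered over 2002, 499 and 638 bp in the PBS libraries and 418, 0 and 200 bp in the CTX libraries. The groups did not overlap, and PBS library 1 was far above the rest. The means were 1046 ± 831 bp and 206 ± 209 bp (exact permutation test, p = 0.1, Benjamini-Hochberg value 0.7). Without PBS library 1 the difference of CTX from PBS shrank from −840 to −363 bp.

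The 6 merged Tbx1 regions lay inside the gene, and none was found in more than 3 libraries. CTX library 1 and CTX library 3 did not share a region. That of CTX library 1 lay 1236 to 1653 bases past the TSS, and PBS libraries 1 and 3 had intervals that overlapped it. That of CTX library 3 lay 5704 to 5903 bases past the TSS, and PBS libraries 1 and 2 had intervals that overlapped it.

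Eomes, which acts in the early embryo, in cortical progenitors and in cytotoxic lymphocytes, was the T-box gene with the fewest marked libraries. Its window was covered over 889 bp in PBS library 1 and 209 bp in CTX library 1, and over 0 bp in the other 4. The region called in both libraries began 792 bases past the TSS and covered 648 bp in PBS library 1 and 209 bp in CTX library 1. It held 10.8 CG per 100 bases, the highest density of any T-box region. PBS library 1 also had 211 bp in a coding exon 6.3 to 6.5 kb past the TSS.

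A further region at Eomes lay almost wholly past the gene end, chr9:118486103-118487138, in an exon of the antisense RNA Gm33460, and was called in all 6 libraries. It covered 887, 919 and 608 bp in PBS and 212, 615 and 794 bp in CTX, with overlap of the groups. Only its PBS library 1 interval reached back into the Eomes window, so the count of libraries for Eomes depends on where the window ends.

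Tbx2 and Tbx4 lie next to each other on chromosome 11, with 39.5 kb between the Tbx2 end and the Tbx4 window. Tbx2 is a repressor that acts in the heart, limb and eye, and Tbx4 directs the hindlimb and the lung. Tbx2 was covered over 1432, 216 and 1892 bp in PBS and 253, 1009 and 0 bp in CTX. Tbx4 was covered over 1507, 303 and 807 bp in PBS and 408, 626 and 0 bp in CTX. Both genes overlapped between groups (exact permutation test, p = 0.3 each), and PBS library 2 was low and CTX library 3 empty for both.

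As a share of its window Tbx2 held 9.95, 1.5 and 13.1% in PBS and 1.76, 7.01 and 0% in CTX. Tbx4 held 4.35, 0.874 and 2.33% in PBS and 1.18, 1.81 and 0% in CTX. Tbx2 was the higher of the pair in 5 of 6 libraries, and both were at 0 in the last. The difference was 3.80 ± 4.23 percentage points (SD, n = 6; exact sign-flip permutation test, p = 0.0625), where 0.03125 is the smallest p that 6 libraries can give. Without PBS library 3 it was 2.40 points. In bp, where the longer Tbx4 window counts in full, the difference was 192 bp (exact sign-flip permutation test, p = 0.5), and Tbx2 was higher in 2 libraries only. With peaks of q at most 1e-05 the mean difference in share was −0.06 points.

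The difference between Tbx2 and Tbx4 was 5.68 ± 5.09 points in PBS and 1.93 ± 2.85 points in CTX, with overlap of the groups (exact permutation test, p = 0.2). No peak was called between the genes in any of the 6 libraries.

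Most of the Tbx2 coverage in PBS libraries 1 and 3 and in CTX library 2 came from a region 4.1 to 2.7 kb upstream of the TSS, chr11:85828459-85829867, inside the noncoding transcript 2610027K06Rik. A region in a Tbx2 intron, 6.9 to 7.5 kb past the TSS, was called in 3 PBS libraries and CTX library 1. No Tbx2 peak lay within 2 kb of the TSS.

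Tbx4 had the only promoter pattern that split by group. Within 2 kb of its TSS a peak was called in 3 of 3 PBS and 0 of 3 CTX libraries, which 3.79% of the 2192 genes with a promoter peak also showed. The region, chr11:85885746-85886222, lay 676 to 200 bases upstream of the TSS and covered 382, 303 and 415 bp in PBS, with a −log10 q of 2.12, 5.99 and 5.52. Inside the gene CTX libraries 1 and 2 had peaks at 2.4 to 3.2 kb, as PBS library 1 did. Over the whole window Tbx4 thus had peaks in both groups, and 0 of the 10 genes had a window peak in all PBS and no CTX library, against 1.73% of the 4270 genes.

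**Figure D3:**
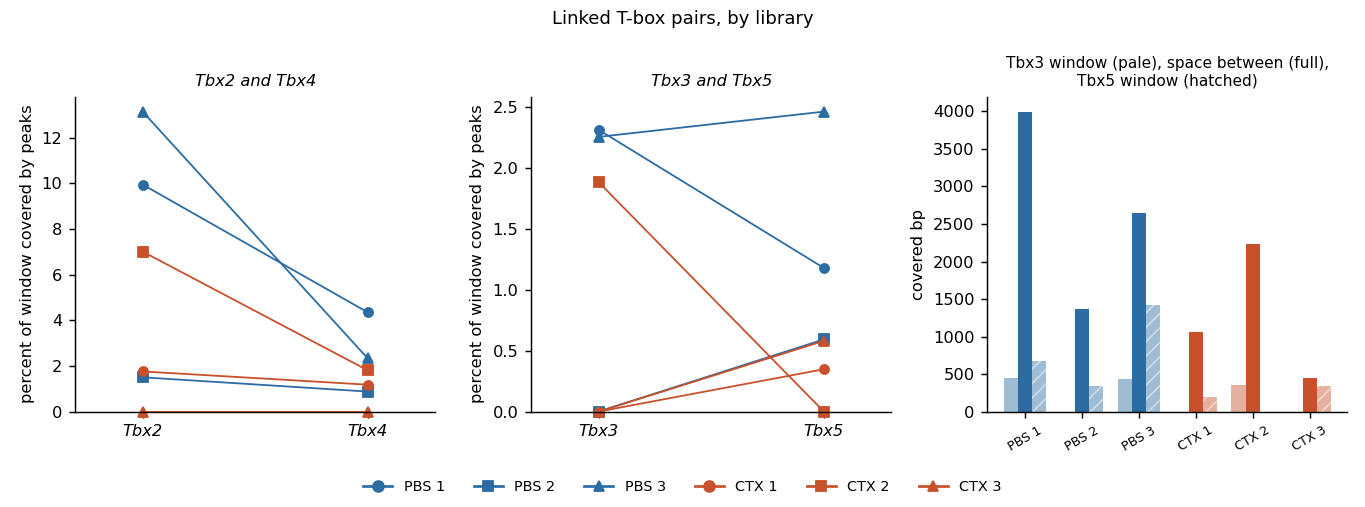
Left and centre, percent of the gene window covered by peaks (y axis) for the linked genes Tbx2 and Tbx4, and Tbx3 and Tbx5, with 1 line for each PBS (blue) and CTX (orange) library. Right, bp covered in the Tbx3 window, in the space between and in the Tbx5 window; the space between holds more covered bp than either gene in all 6 libraries, over a length of 143 kb.

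Tbx3 and Tbx5 lie on chromosome 5 with 143 kb between the Tbx3 end and the Tbx5 window. Tbx3, a repressor close in sequence to Tbx2, acts in the limb and mammary gland, and Tbx5 directs the forelimb and the heart. Tbx3 was covered over 441, 0 and 430 bp in PBS and 0, 359 and 0 bp in CTX, with overlap of the groups (exact permutation test, p = 0.4). The 2 PBS peaks lay 3.5 to 3.0 kb upstream of the TSS, inside the antisense RNA Tbx3os1, and the CTX library 2 peak lay in an intron 10.8 kb past it, so the groups shared no Tbx3 region. No Tbx3 peak lay within 2 kb of the gene's TSS.

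Tbx5 was covered over 679, 341 and 1418 bp in PBS and 200, 0 and 334 bp in CTX. The groups did not overlap, though PBS library 2 and CTX library 3 lay close. The means were 813 ± 551 bp and 178 ± 168 bp (exact permutation test, p = 0.1, Benjamini-Hochberg value 0.7). Without PBS library 3 the difference of CTX from PBS moved from −635 to −332 bp. The PBS and CTX peaks differed in place, apart from a region 6.6 to 7.0 kb past the TSS. Within 2 kb of the TSS a peak was called in 2 of 3 PBS libraries and 0 of 3 CTX libraries, and PBS library 1 had a region 2.3 to 2.8 kb past the TSS. CTX libraries 1 and 3 were covered only at 6.6 to 7.0 kb past the TSS, in an intron, as was PBS library 1.

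The share of the window was higher in Tbx3 in 2 libraries and in Tbx5 in 4, with a mean difference of 0.215 ± 1.04 points (SD, n = 6; exact sign-flip permutation test, p = 0.6875). The difference between PBS and CTX in this value was 0.207 points (exact permutation test, p = 0.8). Single libraries ran from −0.593 to 1.88 points, so neither gene was the more covered throughout.

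The space between Tbx3 and Tbx5 held 3998, 1373 and 2641 covered bp in PBS and 1055, 2240 and 446 bp in CTX. In each of the 6 libraries this was more than in the Tbx3 or the Tbx5 window, over a longer stretch. Per base it was 2.80, 0.961 and 1.85% in PBS and 0.738, 1.57 and 0.312% in CTX, above both gene windows in PBS libraries 1 and 2 and CTX library 1 and below at least 1 of them in the other 3. The means were 2671 ± 1313 bp in PBS and 1247 ± 912 bp in CTX, with overlap (exact permutation test, p = 0.2). The Tbx2 to Tbx4 space, by contrast, had 0 bp in every library.

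A region in this space, chr5:119802614-119803835, was called in all 6 libraries. It covered 1206, 925 and 896 bp in PBS and 401, 706 and 446 bp in CTX, without overlap of the groups, and was chosen after its values were seen. How many other regions called in all 6 libraries did the same was not counted. Its −log10 q was 10.1, 8.56 and 7.08 in PBS and 4.03, 7.10 and 5.98 in CTX, with overlap. It lies upstream of the GENCODE start of Tbx5 and inside the Tbx5 gene as RefSeq draws it, so Tbx5 counted as marked in all 6 libraries with the RefSeq bounds. Another region nearby, chr5:119797907-119798343, was called in 3 PBS and 0 CTX libraries, and a region in Tbx3os2 just past the Tbx3 end was called in 3 PBS libraries and CTX library 2.

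Tbx15, which acts in the skeleton and in muscle and fat, was covered over 1987, 351 and 808 bp in PBS and 0, 882 and 0 bp in CTX. The groups overlapped through CTX library 2 (exact permutation test, p = 0.3). Its shared region lay in an intron 9.6 to 10.9 kb past the TSS, chr3:99250005-99251278, and was called in 3 PBS libraries and CTX library 2. The peaks upstream of Tbx15 lay inside the neighbouring gene Wars2 and cannot be ascribed to either gene.

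**Figure D4:**
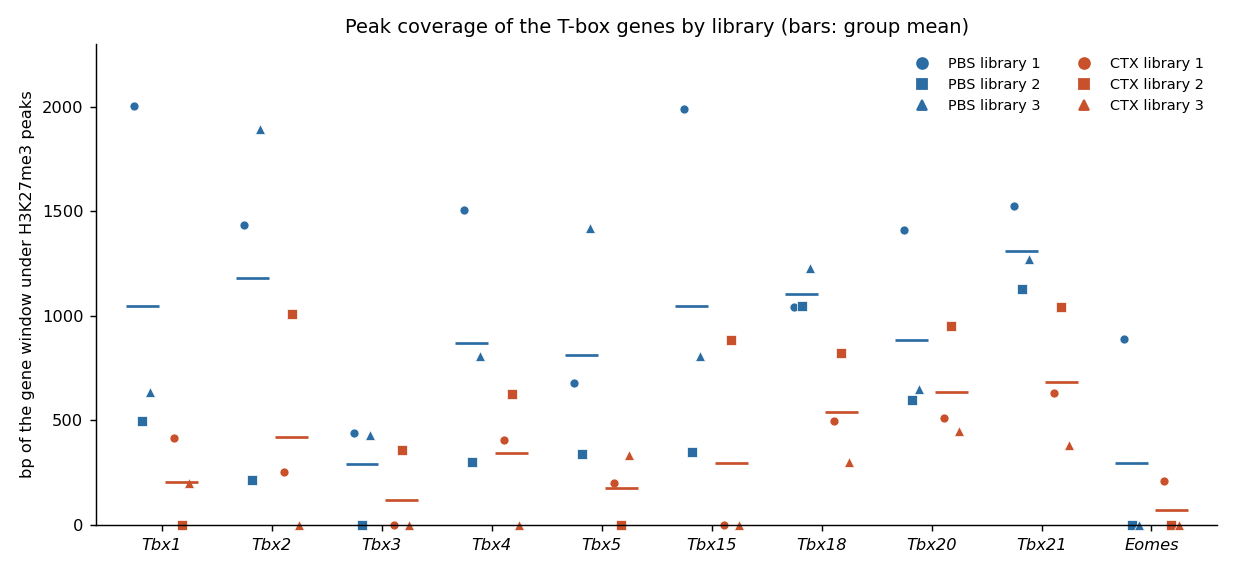
Bp of each T-box gene window that lay under H3K27me3 peaks (y axis), for the 3 PBS (blue) and 3 CTX (orange) libraries, with a bar at the group mean. All 10 CTX means lie below the PBS means; the groups are apart for Tbx1, Tbx5, Tbx18 and Tbx21 and overlap for the other 6 genes.

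Over the 10 genes together, PBS libraries 1 to 3 had a peak in 10, 8 and 9 genes and CTX libraries 1 to 3 in 8, 7 and 5. PBS library 2 and CTX library 1 were level, so the groups touched. The means were 9 ± 1 and 6.67 ± 1.53 genes (exact permutation test, p = 0.2), and the difference moved from −2.33 to −1.5 genes without CTX library 3. At the same time 2402 ± 300 of all protein-coding genes had a peak in PBS and 2005 ± 395 in CTX (exact permutation test, p = 0.3).

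The summed coverage of the 10 windows was 12911, 4480 and 9148 bp in PBS and 3125, 5689 and 1668 bp in CTX. PBS library 2 lay below CTX library 2. The means were 8846 ± 4224 bp and 3494 ± 2036 bp, or 0.395 of the PBS value (exact permutation test, p = 0.2). Without PBS library 1 the difference of CTX from PBS moved from −5352 to −3320 bp. All peaks of a library covered 2.36 ± 0.562 Mb in PBS and 1.44 ± 0.507 Mb in CTX, or 0.611 of the PBS value. As a share of that total the T-box windows took 0.454, 0.257 and 0.368% in PBS and 0.215, 0.293 and 0.179% in CTX, again with overlap (exact permutation test, p = 0.2).

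Each list was also cut to its 2916 strongest merged intervals, the number in the shortest list. Then 9, 7 and 6 genes were marked in PBS and 7, 6 and 5 in CTX (exact permutation test, p = 0.5). The summed coverage was then 8022, 3622 and 4323 bp in PBS and 2925, 3608 and 1668 bp in CTX. Here the groups stood apart, with PBS library 2 and CTX library 2 close (exact permutation test, p = 0.1).

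The mean coverage was lower in CTX for 10 of 10 T-box genes, and for 2999 of the 4270 genes with a peak in any library. The groups did not overlap, with CTX lower, for 4 of the 10 genes, against 14% of the 4270, and with CTX higher for 0 of 10, against 0.281%. The lower call needs a peak in all 3 PBS libraries, which 8 of the 10 genes and 1652 of the 4270 had. Among those, 4 of the 8 and 598 of the 1652 were lower without overlap. The median difference of CTX from PBS was −595 bp over the 10 genes and −89.2 bp over the 4270. A gene can lose no more than its PBS coverage, and the PBS means of the 10 genes ran from 290 to 1309 bp. Many of the 4270 were covered less, and genes of like PBS coverage were not compared. Depth and list length moved in the same direction as these differences, and their full part in them was not tested.

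The 94 intervals that touched the windows lay in 38 merged regions. Each region was counted with all of its intervals, also those outside the window, as in the region past Eomes. Of the 38 regions, 16 were called in 1 library, or 42.1% against 62.9% of all regions of the genome. In all 6 libraries 4 were called, among them the region past Eomes. Regions called in all 3 PBS and 0 CTX libraries numbered 3, at Tbx4, Tbx18 and Tbx21, against 1.64% of all merged regions. PBS libraries alone called 19 of the 38 regions, or 50%, against 39.7% of all merged regions, and CTX libraries alone called 3, or 7.89%, against 31%. These shares were not tested, and the PBS libraries contributed 32, 11 and 22 of the intervals and the CTX libraries 11, 13 and 5. Within 2 kb of the start of any annotated transcript of their own gene, and not of the TSS used elsewhere alone, lay 23 of the 38. The same share was not counted over all merged regions.

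The T-box regions held a median of 2.49 CG per 100 bases, against 1.43 over all regions, and 5.84% of their bases were repeats, against 10.1%. In the 4 regions shared by all libraries the median was 7.26 CG per 100 bases, against 3.88 in all regions of that kind. Tbx21, with 9.14, and Tbx18, with 8.85, were the densest of the 4, and the region past Eomes, with 3.28, was the sparsest.

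**Figure D5:**
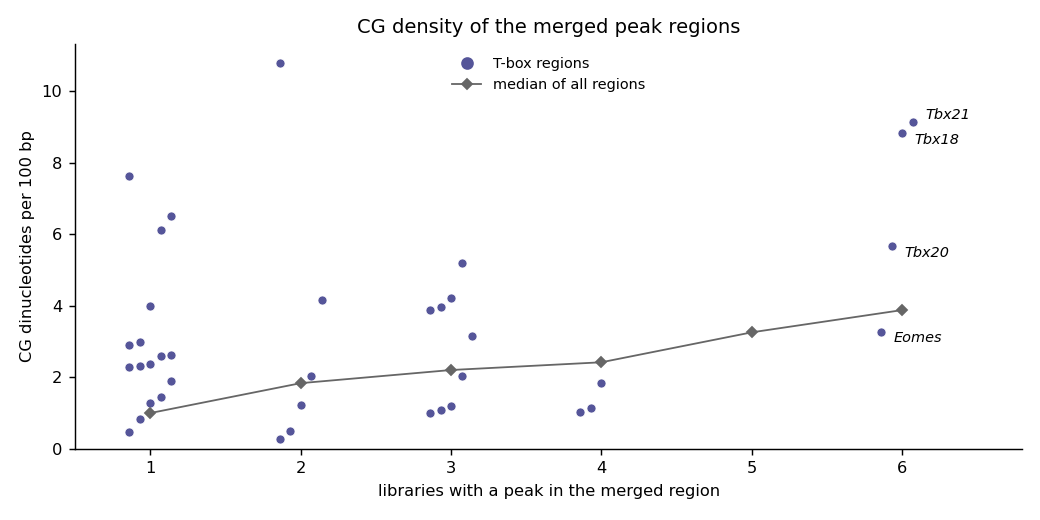
CG dinucleotides per 100 bases (y axis) of the 38 merged regions in T-box windows (circles), by the number of libraries that called the region (x axis), with the median of all merged regions as grey diamonds. The regions of Tbx21, Tbx18 and Tbx20 lie above the median of 3.88 for regions called in 6 libraries, and that of Eomes, at 3.28, lies below.

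RefSeq promoters (GRCm38.p6, 250 bases before the start to 50 after it) were at hand for Eomes, Tbx1, Tbx4, Tbx18, Tbx20 and Tbx21, with 2 entries for Tbx1. The Tbx4 entry, chr11:85896515-85896814, belongs to another start inside the gene, and not to the TSS whose upstream peak was called in the 3 PBS libraries. The promoters held 26 CG at Tbx20, 26 and 16 at Tbx1, 21 at Tbx21, 15 at Tbx18, 10 at Eomes and 8 at Tbx4, against a median of 7 over 32851 promoters. A peak touched the Tbx20 promoter in all 6 libraries, and 1 of the Tbx1 promoters in 2 PBS libraries and 1 CTX library. The other 5 promoter entries were touched in 0 libraries, although those of Tbx18 and Tbx21 lay within 1 kb of a region called in every library. The T-box site AGGTGTGA and its core GGTGTG, which it holds, were searched on both strands and were found in 0 of the 7 promoters, and in 1.28% and 19.0% of all promoters.

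Among the 7 other genes of the T-box family, T, Tbx6, Tbx10, Tbx19, Tbx22, Tbr1 and Mga, 4 had a peak in any library, against 19.4% of all protein-coding genes. T, also called brachyury, which is needed for mesoderm and notochord, was marked in all 6 libraries, over 2087, 1278 and 1436 bp in PBS and 405, 1044 and 633 bp in CTX. Tbr1, a factor of cortical neurons, was marked over 816, 964 and 909 bp in PBS and 0, 217 and 0 bp in CTX. Neither gene overlapped between groups (exact permutation test, p = 0.1 each, Benjamini-Hochberg value 0.7), and Tbx6, Tbx19 and Mga had no peak. Thus 2 of the 4 genes with a peak were lower in CTX without overlap, against 14% of the 4270 genes with a peak in any library. These 2 were the only ones of the 7 with a peak in all 3 PBS libraries, which the lower call needs.

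Of 22 regulators that work beside T-box factors in the limb and heart, 17 had a peak in any library and 7 had a peak in all 6, against 19.4% and 4.51% of all protein-coding genes. These were the secreted factors Fgf8, Shh, Bmp2, Bmp4 and Wnt5a and the homeobox factors Pitx1 and Nkx2-5. Pitx1, which acts before Tbx4 in the hindlimb, was covered over 2175, 1639 and 2376 bp in PBS and 1231, 1760 and 1567 bp in CTX, with overlap (exact permutation test, p = 0.2). Nkx2-5, which works with Tbx5 and Tbx20 in the heart, was covered over 1175, 539 and 767 bp in PBS and 309, 506 and 214 bp in CTX, without overlap (exact permutation test, p = 0.1). In total 4 of the 17 genes with a peak, Hand2, Isl1, Nkx2-5 and Wnt5a, were lower in CTX without overlap and 0 were higher. The shares of the 4270 genes with a peak in any library were 14% and 0.281%. Of the 22 regulators, 11 had a peak in all 3 PBS libraries, which the lower call needs. The median difference over the 22 was −246 bp. Gata4 and Gata6, which GCs express, had 0 bp in every library, as did Mef2c, Nppa and Bmp10.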

How the data were processed

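Anti-H3K27me3 CUT&Tag was done on 6 pooled GC samples. The authors trimmed reads with fastp, aligned them to mm10 with BWA, kept unique and de-duplicated reads, and called peaks per library with MACS2 2.1.0 at q 0.05. Whether a control library was used is not given in the sources used here. The deposited peak lists give an integer score, a fold enrichment (a ratio), −log10 p-values and −log10 q-values. The score was not used.

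Intervals of a library were merged, and covered bp were counted in windows of the 22015 protein-coding genes of GENCODE M21. Reads under a summit were solved from the deposited fold and −log10 p-value, and depth from the commonest background over 200 bp. It was assumed that fragments were counted as 200 bp and that this background is the genome-wide floor. CTX was set against PBS by exact two-sided permutation of libraries (20 splits), with Benjamini-Hochberg adjustment over all genes. Since each library is a separate pool, the p-values describe the spread between pools. Genes named were the 10 members, and, of 2 lists of related genes, those with a peak in all 6 libraries or in 3 of one group and 0 of the other. Tbr1, Hand2, Isl1, Gata4, Gata6, Mef2c, Nppa, Bmp10 and the genes of cell type markers were named after their values were seen. Members and lists were chosen with earlier results of these data known. Scripts were tested on simulated peaks. Python 3.11.15, numpy 2.4.6, pandas 2.3.3, scipy 1.17.1 and pysam 0.24.0 were used.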

Additional observations from a re-analysis of the deposited data

How the results depend on the processing

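Of 284 values under alternative settings, 21 changed sign and 3 came to 0. With 3 against 3 libraries no p can fall below 0.1, so the threshold of 0.05 says nothing of stability. The lower number of marked T-box genes and the lower summed coverage in CTX kept their sign in every setting tried, at −3.00 to −1.33 genes and −7536 to −1615 bp. In bp per Mb of the library's own coverage the summed difference was −1306.

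Leaving out 1 library gave −3.00 to −1.50 genes, −7536 to −3320 bp, and 2.40 to 4.57 points for Tbx2 minus Tbx4. It gave −6.28 to −1.19 points for the difference of that value between CTX and PBS. It gave −0.119 to 0.377 points for Tbx3 minus Tbx5 and −0.576 to 0.719 points for its difference between CTX and PBS. Both of the last values changed sign without CTX replicate 2, at −0.119 and −0.576, and the second also without PBS replicate 2, at −0.145.

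Tbx2 minus Tbx4 was −0.0637 points with q at most 1e-05 and −4.58 points within 2 kb of the TSS, where its CTX minus PBS value was 9.16. That CTX minus PBS value was 0.0338 with equal peak numbers. Tbx3 minus Tbx5 was −0.165 points with q at most 1e-05, −4.62 within 2 kb of the TSS, −0.185 with equal peak numbers, −0.630 with RefSeq gene bounds and −290 in bp. Its CTX minus PBS value was −0.238 with windows drawn 5 kb past the gene end. For single genes, the CTX minus PBS coverage was 38.0 bp for Tbx15 within 2 kb of the TSS, 120 bp for Tbx3 with equal peak numbers and 74.9 bp per Mb for Tbx20 as a share of the library. Leaving out 1 library gave −405 to 13.2 bp for Tbx20 and −375 to 69.7 bp for Eomes, both positive only without PBS replicate 1. It gave −0.816 to 3.91 points for the Tbx20 percentile difference, negative without PBS replicate 1, PBS replicate 3 or CTX replicate 2. The causes were not tested.

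With the replicate number as a block, the exact sign-flip test over 3 pairs, which cannot go below 0.25, gave the same differences, −2.33 genes and −5352 bp. Same-numbered libraries deviated from their group means with correlations of −0.00620, −0.136 and −0.0864 over 4270 genes. The labels link them by the number alone, and whether they shared a batch was not tested. RefSeq bounds, windows past the gene end and unscaled heights were chosen after seeing the data. A peak list holds no signal below the threshold, so at these depths a gene without a peak was not detected and need not be unmarked.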
